A study of Mus musculus with 9 samples.

Results

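The genes described here are 38 mouse genes of autophagy and the lysosome, chosen by name as known components of the pathway and found as 38 of the 54532 genes in the expression table. Grouped by role, they are 6 regulators and initiation factors, 5 conjugation enzymes, 6 genes of the Atg8 family with its cargo receptor, 5 lysosomal membrane and cholesterol transport genes, 7 cathepsins, 6 glycosidase and lipid hydrolase genes and 3 proton pump subunits. Every one of the 38 passed the filter on low values that left 14683 genes for testing. Every one was also above 1 FPKM (fragments scaled to gene length and to a size set for each library) in each library.

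Autophagy encloses cytoplasmic material in a double membrane and delivers it to the lysosome, where acid hydrolases break it down. The kinase mTORC1 restrains this route by phosphorylating ULK1, which starts the membrane, and TFEB, a transcription factor that activates lysosomal and autophagy genes through a short palindromic DNA element, the CLEAR element, built around the E-box CACGTG. Rapamycin inhibits mTORC1, and in the intestine autophagy is known for its part in Paneth cell secretion and in the handling of microbes, while the cathepsins of antigen-presenting cells cut proteins for presentation.

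RNA was measured in duodenum tissue of mice in 3 groups of 3 libraries each. The control libraries came from wild-type mice with non-enhanced gluten stimulation. The CeD libraries came from a celiac disease model built on delayed-type hypersensitivity, with enhanced gluten stimulation. The CeD+GR libraries came from the same model with the same enhanced stimulation, given gliadin-rapamycin composite nanoparticles beforehand. All 9 libraries are thus from gluten-stimulated mice, and no group analysed here received particles without rapamycin, rapamycin without particles, or gliadin alone, so these components cannot be told apart. The labels give no strain, age, dose or time, and do not say whether the libraries of a group came from separate animals. The p-values below therefore measure no more than how these samples vary, and that variation may be technical.

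Reads assigned to genes numbered 15373260 (CeD 1) to 16852104 (control 3), and the 38 genes took 0.429% (CeD 1) to 0.543% (CeD+GR 3). Markers of enterocytes were present in every library, with summed levels of 8953 to 37182 FPKM over 11 genes. One library stands apart: in CeD+GR 3 all 8 of 8 markers of gastric and Brunner's gland epithelium were above every other library, with a sum of 140705 FPKM against 0 to 52.1. Of 11 enterocyte markers, 9 were below every other library there and 1, Alpi, was above every other. CeD 1 stands apart by its pancreatic enzyme genes, at 4054 FPKM in sum against 14.5 to 77.7 elsewhere, and shares with control 1 a low enterocyte sum of 13534 and 17193 FPKM. Paneth cell markers were high in the replicate 1 library of each group, and adipocyte markers in CeD+GR 2 (468 FPKM in sum against 45.1 to 108). In pieces of tissue, fewer cells of a type and less RNA per cell cannot be told apart. Where a fold change of the 38 genes that is printed below turns sign or moves much without CeD+GR 3, the value without it is given as well.

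Lysosomal structural and proteolytic genes were the most abundant of the 38. Averaged over the 9 libraries, Lamp1, the major glycoprotein of the lysosomal membrane, stood at 207 FPKM, the cathepsin gene Ctsz at 191, the sphingolipid activator precursor Psap at 184, the Atg8 family gene Gabarap at 152, Ctss at 144 and Ctsb at 114. The regulators lay at the other end, with Tfeb at 3.43, Uvrag at 2.14 and the galactosidase gene Gla at 2.13 FPKM. The median member varied less between libraries than the median of all genes above 1 FPKM in every library. Those genes were not matched to the 38 for level. The highest library was 1.92 times the lowest for the median member, against 2.29 times for the 9516 genes above 1 FPKM in every library. Without CeD+GR 3 these values were 1.72 and 1.98.

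**Figure D1:**
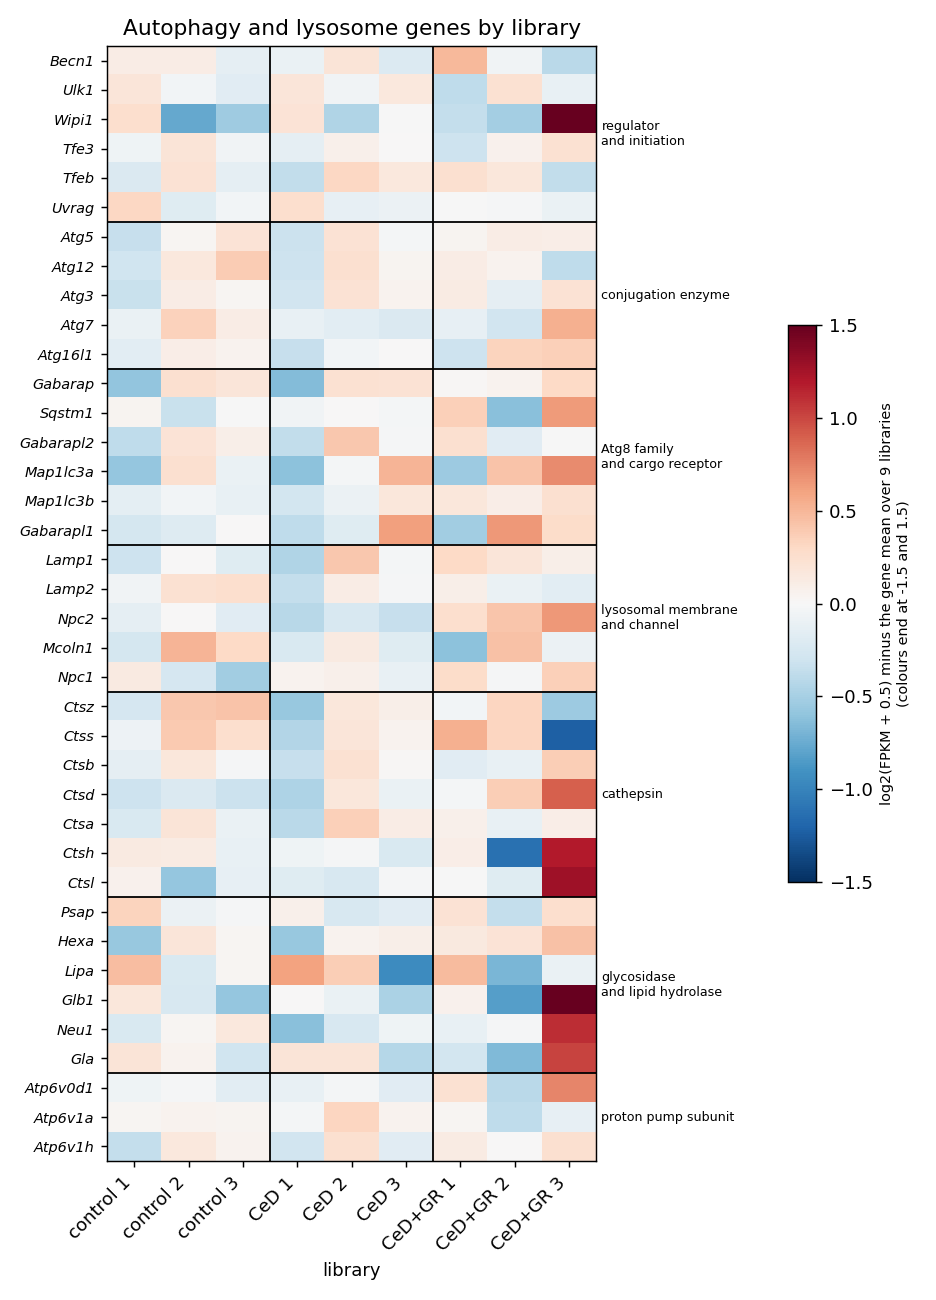
Level of each of the 38 genes in each library, as log2(FPKM + 0.5) minus the gene's mean over the 9 libraries, with rows grouped by role and columns by group (control, CeD, CeD+GR, replicates 1 to 3). The strongest single cells lie in the CeD+GR 3 column, where Wipi1 and Glb1 are high and Ctss is low, while control 1 and CeD 1 are low for Gabarap, Hexa and Lamp1.

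No member passed the test in any of the 3 comparisons. With limma on log2(FPKM + 0.5) and Benjamini-Hochberg adjustment over all 14683 genes, 0 of 38 members had an adjusted p under 0.05 in CeD against control, in CeD+GR against CeD or in CeD+GR against control. The same holds for the table as a whole (0% of genes called in each comparison, smallest adjusted p = 1), so the members share this outcome with all genes. At an unadjusted p under 0.05 limma gave 0 members in CeD against control, where 0.701% of all genes were below it (0.272% higher, 0.429% lower). It gave 1 member, higher, in CeD+GR against CeD (2.89% of all genes, 1.14% higher and 1.76% lower) and 2, both higher, in CeD+GR against control (2.72% of all genes, 1.31% higher and 1.41% lower). In CeD against control the replicate number was also fitted as a block, although the data set only replicate 1 apart as a pair. That fit gave 0 members and 193 genes in all at that level, against 103 without the block. No gene passed adjustment in it. The numbers of members were also 0, 1 and 2 with limma-voom on recovered reads, and again none passed adjustment.

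Members whose groups did not overlap were few. In CeD against control 2 of 38 were lower in every CeD library than in any control library, Npc2 and Atg7, and none was higher (4.69% of all genes did not overlap, 2.2% higher and 2.49% lower). In CeD+GR against CeD 2 were higher without overlap, Npc2 and Hexa, and none lower (6.05% of all genes, 3.01% higher and 3.04% lower). In CeD+GR against control 4 were higher without overlap, Npc2, Ctsd, Map1lc3b and Lamp1, and none lower (5.58% of all genes, 2.54% higher and 3.04% lower). The first 2 counts, 5.26% of the members each, lie near the background, and the last is 10.5% of them.

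The sizes of the differences were small. The median log2 fold change of the members was -0.01 in CeD against control, with 17 of 38 positive and a range of -0.30 to 0.27. It was 0.14 in CeD+GR against CeD, with 31 of 38 positive, and 0.09 in CeD+GR against control, with 25 positive. The medians of all genes tested were 0.00, 0.01 and 0.00. These last comparisons share the CeD+GR libraries, and CeD against control shares its libraries with both. The medians above 0 depended on single libraries: without CeD+GR 3 they were 0.04 (24 positive) and 0.01 (19 positive), and the first was also 0.04 without CeD 1 and -0.03 without both libraries. The median against control was also 0.04 without control 1, 0.17 without control 2 and 0.15 without CeD+GR 2, and that of CeD against control ran from -0.11 without CeD 2 to 0.07 without CeD 1. The median standard error of a member's log2 fold change was 0.27, against 0.35 for all genes. The 95% interval lay within 1 log2 unit of 0 on both sides for 30, 27 and 25 of the 38 members, in the order given above.

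**Figure D2:**
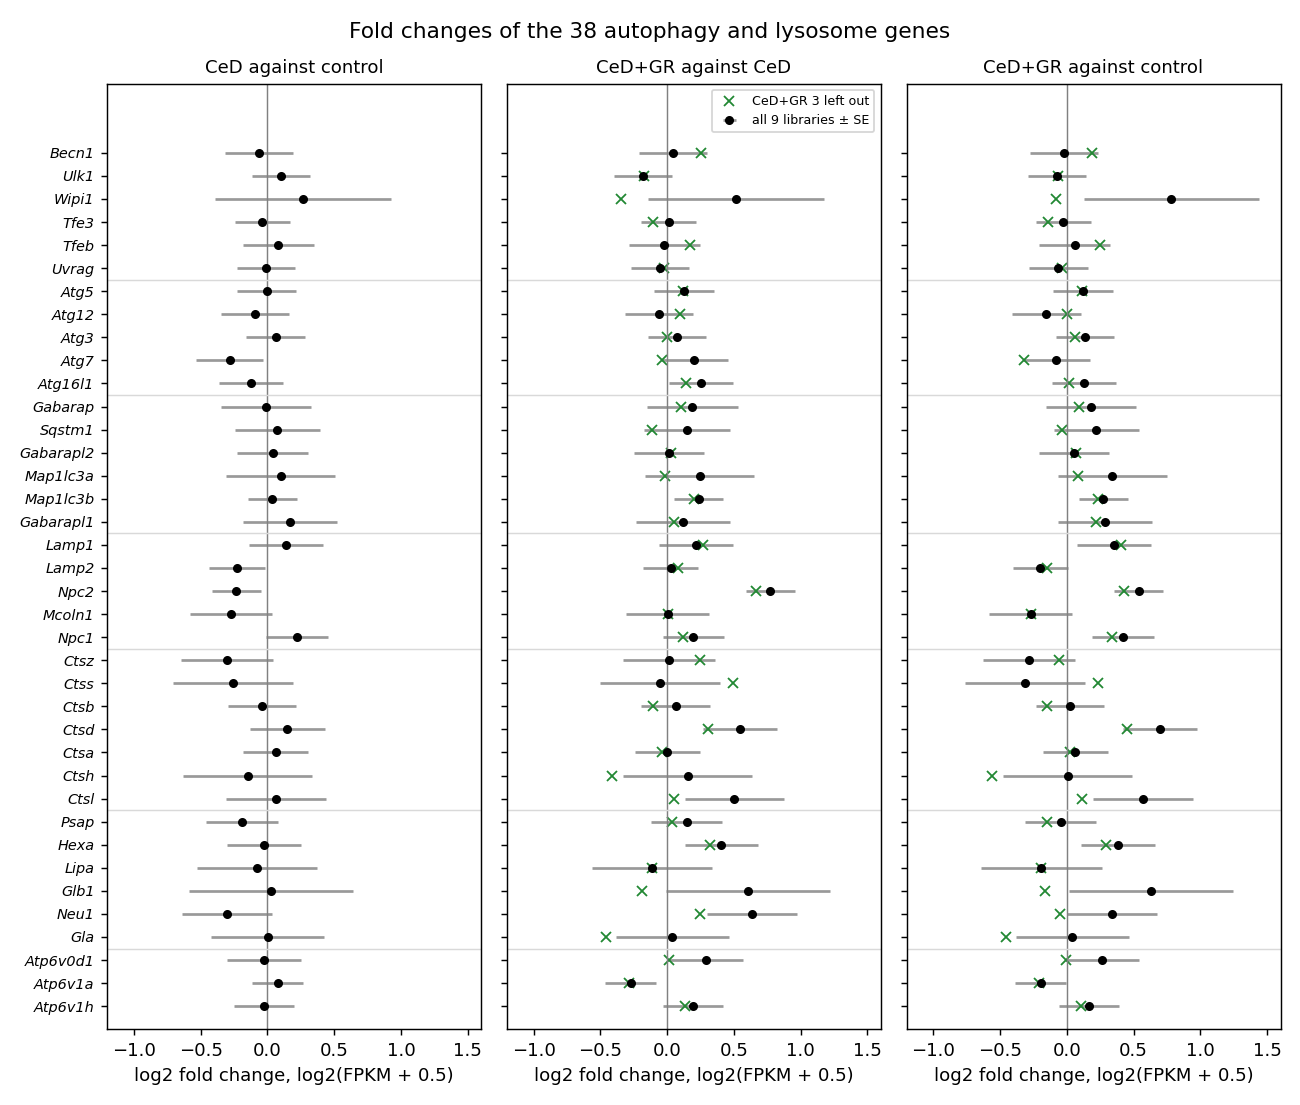
Log2 fold change of each of the 38 genes in the 3 comparisons, from limma on log2(FPKM + 0.5); dots are all 9 libraries, bars 1 SE to each side and crosses the values without CeD+GR 3. Most dots lie near 0, with Npc2 at 0.77 and Ctsd at 0.55 in CeD+GR against CeD, and the crosses of Wipi1 and Glb1 fall below 0.

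Among the regulators, the transcription factor gene Tfeb stood at 2.82, 4.0 and 3.02 FPKM in control 1 to 3, at 2.5, 4.31 and 3.81 in CeD 1 to 3 and at 4.05, 3.86 and 2.49 in CeD+GR 1 to 3. The 3 groups overlapped throughout, and the log2 fold change of CeD+GR against CeD was -0.02 ± 0.27 (SE), and 0.17 without CeD+GR 3. Its relative Tfe3, which binds the same element, ranged from 2.94 to 4.48 FPKM with a log2 fold change of 0.01 in that comparison and -0.10 without CeD+GR 3. Ulk1, the kinase gene at the start of the route, had 4.85, 4.08 and 3.67 FPKM in the controls, 4.84, 4.04 and 4.75 in CeD and 3.12, 5.01 and 3.87 in CeD+GR. CeD+GR held both its lowest and its highest library. Becn1 and Uvrag, which belong to lipid kinase complexes of autophagy, ranged from 8.73 to 16.7 and from 1.81 to 2.74 FPKM, also with overlap in all comparisons.

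Wipi1, whose product binds the lipid of the forming membrane, had the widest range of the 38 genes. Its levels were 3.77, 1.6 and 1.98 FPKM in the controls, 3.64, 2.12 and 3.05 in CeD and 2.30, 2.02 and 15.5 in CeD+GR. One library carried the group mean: CeD+GR against control gave a log2 fold change of 0.78 ± 0.66 (SE) with CeD+GR 3 and -0.08 without it.

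The conjugation enzymes attach Atg8 proteins to the membrane, with ATG7 as the activating enzyme, ATG3 as the carrier and ATG12, ATG5 and ATG16L1 as the complex that completes the step. Atg7 was 3.22, 4.55 and 3.80 FPKM in the controls, 3.17, 3.07 and 2.92 in CeD and 3.15, 2.77 and 5.23 in CeD+GR. All CeD libraries lay below all controls, although CeD 1 and control 1 were nearly equal, and the log2 fold change was -0.28 ± 0.25 (SE; 95% interval -0.85 to 0.28; limma, adjusted p = 1). Atg12 was 16.7, 23.1 and 27.0 FPKM in the controls, 16.5, 24.4 and 21.1 in CeD and 22.3, 21.4 and 15.7 in CeD+GR, with overlap in every comparison. Atg5 ranged from 16.3 to 24.3 FPKM in the controls, from 16.6 to 24.5 in CeD and from 21.5 to 22.6 in CeD+GR, a narrower spread in the last group around a similar mean (20.7 ± 4.02, 20.5 ± 3.93 and 22.2 ± 0.585, SD, n = 3). Atg3 ranged from 11.9 to 17.8 FPKM and Atg16l1 from 2.53 to 4.42, and no comparison of either was free of overlap.

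The Atg8 proteins coat the autophagic membrane, and SQSTM1 (p62) tethers ubiquitinated cargo to them. Map1lc3b, the gene of the commonly used marker LC3B, was the steadiest of the 38, at 11.2, 12.0 and 11.5 FPKM in the controls, 10.2, 11.7 and 14 in CeD and 14.1, 13.3 and 14.9 in CeD+GR. Every CeD+GR library was above every control, by a log2 fold change of 0.27 ± 0.18 (SE; 95% interval -0.14 to 0.69; limma, adjusted p = 1), and 0.24 without CeD+GR 3. CeD 3, at 14 FPKM, overlapped the CeD+GR range. Sqstm1 stood at 42.6, 32.8 and 41.3 FPKM in the controls, 40.0, 41.4 and 40.7 in CeD and 53.1, 26.6 and 65.0 in CeD+GR. The CeD libraries were nearly equal and the CeD+GR libraries spanned both sides of them, so the log2 fold change of CeD+GR against CeD, 0.15 ± 0.32 (SE), was smaller than its error and was -0.11 without CeD+GR 3. All 6 genes of this class had positive log2 fold changes in CeD+GR against CeD, with a median of 0.17, and 4 of 6 without CeD+GR 3, with a median of 0.04. Gabarap ranged from 94.2 to 181 FPKM, Gabarapl2 from 17.4 to 30.4, Map1lc3a from 9.45 to 24.5 and Gabarapl1 from 8.21 to 19.

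Npc2 gave the clearest separation of the 38 genes. It encodes the soluble lysosomal protein that takes up cholesterol inside the lysosome and passes it to the membrane protein NPC1. Npc2 (ENSMUSG00000021242, mm10 chr12:84754562-84773152, minus strand) stood at 15.3, 16.8 and 14.9 FPKM in the controls, 12.4, 14.2 and 13.1 in CeD and 20.1, 22.5 and 26.7 in CeD+GR. The groups were separate in each comparison, with CeD lowest, control between and CeD+GR highest (15.7 ± 1.05, 13.2 ± 0.866 and 23.1 ± 3.34 FPKM, SD, n = 3). The log2 fold change of CeD+GR against CeD was 0.77 ± 0.18 (SE), with a 95% interval of 0.36 to 1.19 (limma, adjusted p = 1), which ranked 12 of 14683 genes by unadjusted p. Against control it was 0.54 ± 0.18 (SE; 95% interval 0.12 to 0.95; limma, adjusted p = 1). CeD against control gave -0.24 ± 0.18 (SE; 95% interval -0.65 to 0.18; limma, adjusted p = 1). Npc2 was high in CeD+GR 1 and 2 as well as in CeD+GR 3: without the last library the first of these values were 0.67 and 0.43. Between 1109 and 2370 reads per library lay behind its values.

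The membrane partner Npc1 had 2.72, 1.97 and 1.55 FPKM in the controls, 2.56, 2.61 and 2.23 in CeD and 3.05, 2.40 and 3.28 in CeD+GR. The log2 fold change of CeD+GR against control was 0.42 ± 0.23 (SE; 95% interval -0.11 to 0.94; limma, adjusted p = 1), with control 1 inside the CeD+GR range. Lamp1 (ENSMUSG00000031447, mm10 chr8:13159161-13175338, plus strand) stood at 164, 204 and 180 FPKM in the controls, 149, 270 and 199 in CeD and 251, 231 and 217 in CeD+GR. All CeD+GR libraries were above all controls, by a log2 fold change of 0.35 ± 0.28 (SE; 95% interval -0.28 to 0.98; limma, adjusted p = 1), and 0.40 without CeD+GR 3, while the CeD libraries lay on both sides of them. Lamp2, the related membrane glycoprotein that also serves chaperone-mediated autophagy, did not share this order: it had 28.0, 34.3 and 34.8 FPKM in the controls, 22.7, 31.5 and 28.9 in CeD and 31.1, 27.0 and 25.9 in CeD+GR. Mcoln1, the calcium channel gene of the lysosome, had 4.94, 8.78 and 7.49 FPKM in the controls, 5.07, 6.66 and 5.22 in CeD and 3.76, 8.30 and 5.62 in CeD+GR, with its lowest library and a high one in the same group.

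**Figure D3:**
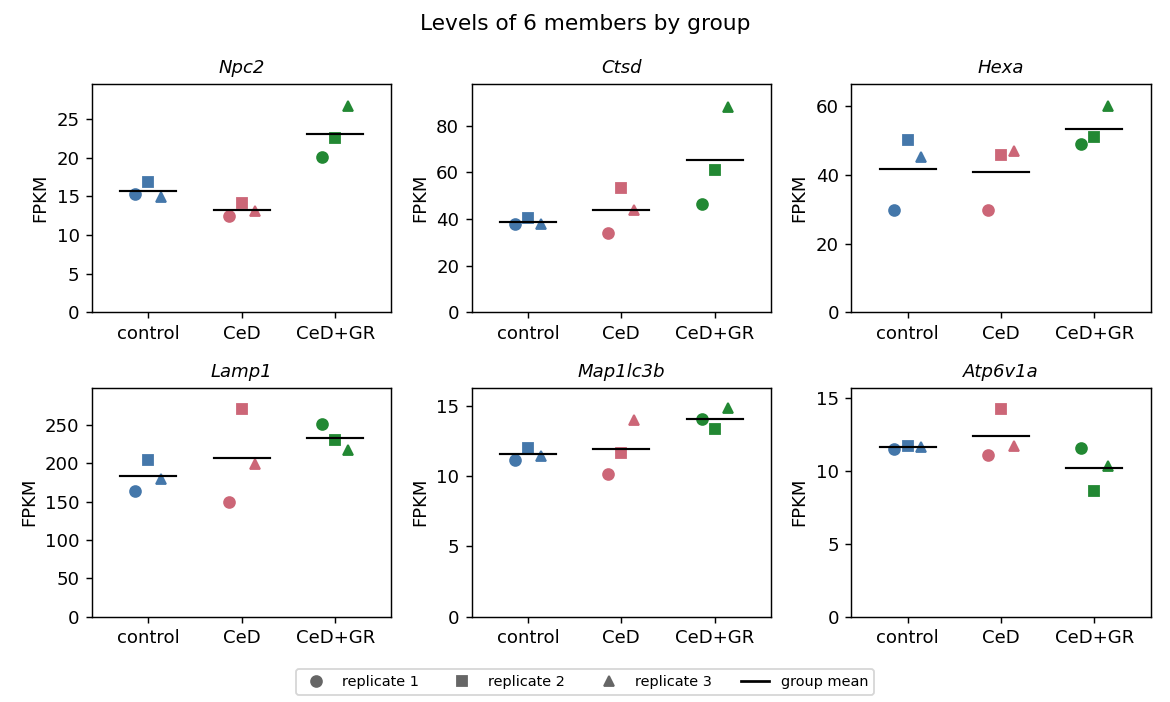
FPKM of 6 of the genes in each library (circles, squares and triangles for replicates 1, 2 and 3) with the group mean as a line; each panel has its own axis from 0. Npc2 is the gene whose 3 groups are separate from each other, with CeD+GR at 20.1 to 26.7 FPKM; Ctsd, Lamp1 and Map1lc3b are separate between CeD+GR and control, Hexa between CeD+GR and CeD, and Atp6v1a overlaps.

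The cathepsins are the proteases of the lysosome, and Ctsd encodes its main aspartic protease. Ctsd (ENSMUSG00000007891, mm10 chr7:142375911-142388038, minus strand) stood at 37.9, 40.5 and 37.7 FPKM in the controls, 33.9, 53.2 and 44.0 in CeD and 46.3, 61.0 and 88.1 in CeD+GR. Every CeD+GR library exceeded every control, by a log2 fold change of 0.70 ± 0.28 (SE; 95% interval 0.06 to 1.33; limma, adjusted p = 1), while CeD 2 lay within the CeD+GR range and CeD+GR against CeD gave 0.55 ± 0.28 (SE; 95% interval -0.09 to 1.18; limma, adjusted p = 1). Part of both values came from CeD+GR 3: without it they were 0.45 and 0.30. Ctsl, an endopeptidase gene, was 6.86, 4.21 and 5.98 FPKM in the controls, 5.73, 5.46 and 6.43 in CeD and 6.50, 5.69 and 16.4 in CeD+GR. Apart from CeD+GR 3 all libraries lay together, and the log2 fold change against control was 0.57 ± 0.37 (SE) with that library and 0.12 without it.

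Ctsb, an abundant cysteine protease gene, was nearly level, with 102, 127 and 111 FPKM in the controls, 88.4, 132 and 114 in CeD and 99.9, 104 and 145 in CeD+GR and log2 fold changes of -0.04, 0.06 and 0.02 in the 3 comparisons. Without CeD+GR 3 the last 2 were -0.11 and -0.15. Ctss, the protease that trims the invariant chain in antigen-presenting cells, ranged from 101 to 198 FPKM in 8 libraries and was 58.5 in CeD+GR 3. Summed T cell markers were also lowest in that library (18.2 FPKM against 21.0 to 54.1, with 4 of 7 genes below every other library). So were dendritic cell markers (4.1 against 5.6 to 9.7, with 3 of 7 genes below and 1 above every other library). B and plasma cell markers were lowest there as well (210 against 266 to 717, with 2 of 6 genes below every other library). Enterocyte markers were lowest there too (8953 against 13534 to 37182 FPKM in sum, with 9 of 11 genes below and 1 above every other library). The part of any of these cells in the Ctss value was not tested. Of 12 macrophage markers only Mertk was below every other library there. Ctsz had 155, 246 and 250 FPKM in the controls, 125, 208 and 196 in CeD and 180, 231 and 127 in CeD+GR, with no order of the groups. Ctsa, which protects the galactosidase and neuraminidase in 1 complex, ranged from 29.4 to 50.2 FPKM, and Ctsh, an aminopeptidase gene, from 7.07 in CeD+GR 2 to 37.1 in CeD+GR 3.

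The remaining hydrolases act on sugars and lipids. Hexa, a subunit of the enzyme that degrades gangliosides, stood at 29.7, 50.1 and 45.1 FPKM in the controls, 29.7, 45.8 and 46.8 in CeD and 48.8, 51.1 and 60.1 in CeD+GR. All CeD+GR libraries were above all CeD libraries, though CeD+GR 1 was close to CeD 3, and the log2 fold change was 0.41 ± 0.28 (SE; 95% interval -0.22 to 1.03; limma, adjusted p = 1). Neu1, the lysosomal neuraminidase gene, had 9.70, 11.7 and 12.9 FPKM in the controls, 7.24, 9.59 and 10.9 in CeD and 10.6, 11.3 and 25.3 in CeD+GR. Its log2 fold change of 0.64 ± 0.34 (SE; 95% interval -0.13 to 1.40; limma, adjusted p = 1) in CeD+GR against CeD was 0.25 without CeD+GR 3. Lipa, the acid lipase that frees cholesterol from its esters, had 42.8, 26.3 and 31.6 FPKM in the controls, 47.3, 40.2 and 15.8 in CeD and 43.2, 19.1 and 28.8 in CeD+GR. Its level in replicate 1 was the highest of each group. Psap ranged from 142 to 230 FPKM with overlap throughout, and the galactosidase genes Glb1 and Gla had their highest value in CeD+GR 3.

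Of the subunits of the V-ATPase, the pump that acidifies the lysosome, Atp6v1a stood at 11.5, 11.8 and 11.7 FPKM in the controls, 11.1, 14.3 and 11.7 in CeD and 11.6, 8.6 and 10.4 in CeD+GR. It was the member with the most negative log2 fold change in CeD+GR against CeD, -0.27 ± 0.19 (SE; 95% interval -0.70 to 0.16; limma, adjusted p = 1), and CeD+GR 1 overlapped both other groups. Atp6v0d1 and Atp6v1h ranged from 25 to 55.6 and from 4.55 to 7.18 FPKM. The signs of the 3 subunits thus differed in CeD+GR against CeD, with 2 of 3 positive.

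CeD+GR 3 was the highest library for 19 of the 38 genes, a state that held for 23.81% of all genes tested. For 6 genes it was at least 1.5 times every other library (9.64% of all genes): relative to the median of the other 8 libraries Wipi1 was 7.03 times, Glb1 4.72, Ctsl 2.81, Gla 2.48, Ctsh 2.38 and Neu1 2.36 times as high. These genes were singled out after their values were seen. Glb1 shows the size of this in FPKM, with 41.9 in CeD+GR 3 against 5.45 to 11.4 elsewhere, and part of the gene's span overlaps Tmppe on the same strand, which had 56.1 reads on average against 603.3 for Glb1. Of the 6 members above 0.5 in log2 fold change in CeD+GR against CeD, 1 remained above it without the library, Npc2. Of the 5 above 0.5 against control, none remained. With all libraries and in either direction, 2994 and 2971 of the 14683 genes tested lay beyond 0.5 in these comparisons, against 6 and 5 of the 38 members. The sign of 13 and 10 members turned when CeD+GR 3 was left out of these comparisons, and the share of all genes that turned was not counted. The gastric marker genes given above were high in the same library, and their part in these values was not tested.

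**Figure D4:**
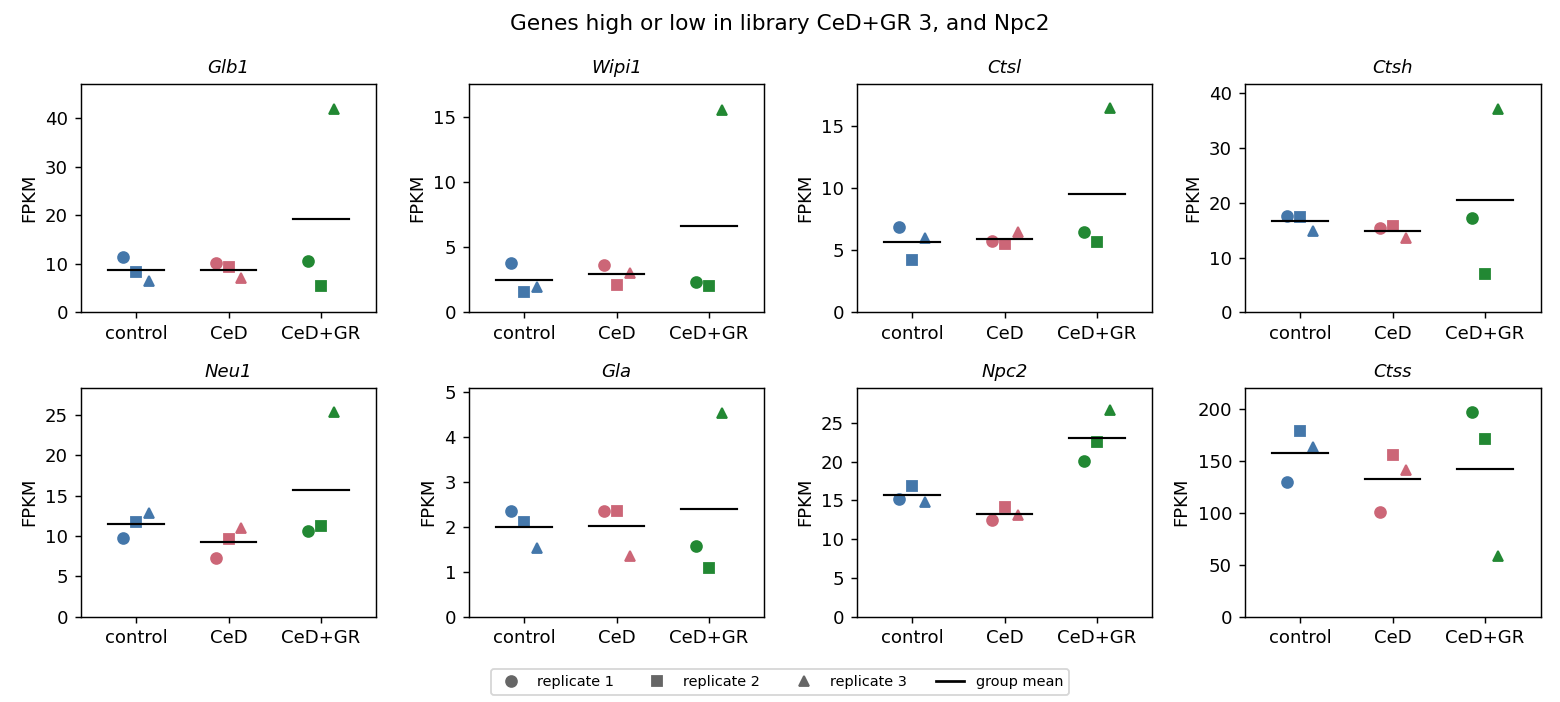
FPKM of the genes with the largest departures in CeD+GR 3, and of Npc2, by group and library; lines are group means and each axis starts at 0. In Wipi1, Glb1, Ctsl, Gla, Ctsh and Neu1 the CeD+GR 3 point lies above all others (for Glb1 41.9 FPKM against at most 11.4), in Ctss it lies below them at 58.5 FPKM, and in Npc2 all 3 CeD+GR points lie above the rest.

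A second pattern crossed the groups. With CeD+GR 3 set aside, control 1 and CeD 1 were the lowest pair of the remaining 8 libraries for 14 of 38 members (36.8%), against 18.11% of all genes tested, and the highest pair for 3 members, against 17.05% of all genes. The 14 were Atg12, Atg3, Atg5, Atp6v1h, Ctsa, Ctss, Ctsz, Gabarap, Gabarapl2, Hexa, Lamp1, Map1lc3a, Map1lc3b and Tfeb, and the 3 were Wipi1, Uvrag and Gla. The library size implied by FPKM was 18206426 for 16185014 reads in control 1 and 17831210 for 15373260 in CeD 1. It lay below the reads in control 2, CeD 2 and CeD+GR 1. As a share of reads the 38 genes took 0.469% in control 1 and 0.429% in CeD 1. In the other 6 libraries they took 0.43% to 0.473%, so control 1 was not low by that measure. The part of this scaling in the pattern was not tested. Gabarap, which helps close the autophagic membrane, was 97.8 FPKM in control 1 and 94.2 in CeD 1 and 150 to 174 in the other 6 libraries. By class, 4 of the 6 genes of the Atg8 class, 3 of the 5 conjugation enzymes and 3 of the 7 cathepsins were low in both libraries. So were 1 of the 3 pump subunits, 1 of the 5 lysosomal membrane genes and 1 of the 6 regulators. Of the 6 glycosidase and lipid hydrolase genes 1 was. The summed enterocyte markers were low in the same pair (17193 and 13534 FPKM, against 28652 to 37182 in the other 6). By gene, Apoa1, Apoa4, Fabp1, Fabp2, Anpep, Slc5a1 and Lct were lowest in the pair, and Vil1, Sis and Slc2a2 overlapped the other 6. Alpi was highest in the pair (1512 and 1506 FPKM, against 405 to 1464). The part of these markers in the pattern was not tested. Paneth cell markers were high in all 3 replicate 1 libraries (1061, 2017 and 2146 FPKM in sum in control 1, CeD 1 and CeD+GR 1, against 75.4 to 179 in the other 6), and their part was not tested either. These 2 libraries belong to different groups, so the pattern widens the spread within control and within CeD. CeD+GR 1 shared it in part: every replicate 1 library was below every other library for 7 of 38 members (18.4%, against 7.25% of all genes), Gabarap, Ctsb, Map1lc3a, Gabarapl1, Mcoln1, Tfe3 and Atg16l1, and above every other for 2, Lipa and Uvrag (9.06% of all genes).

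**Figure D5:**
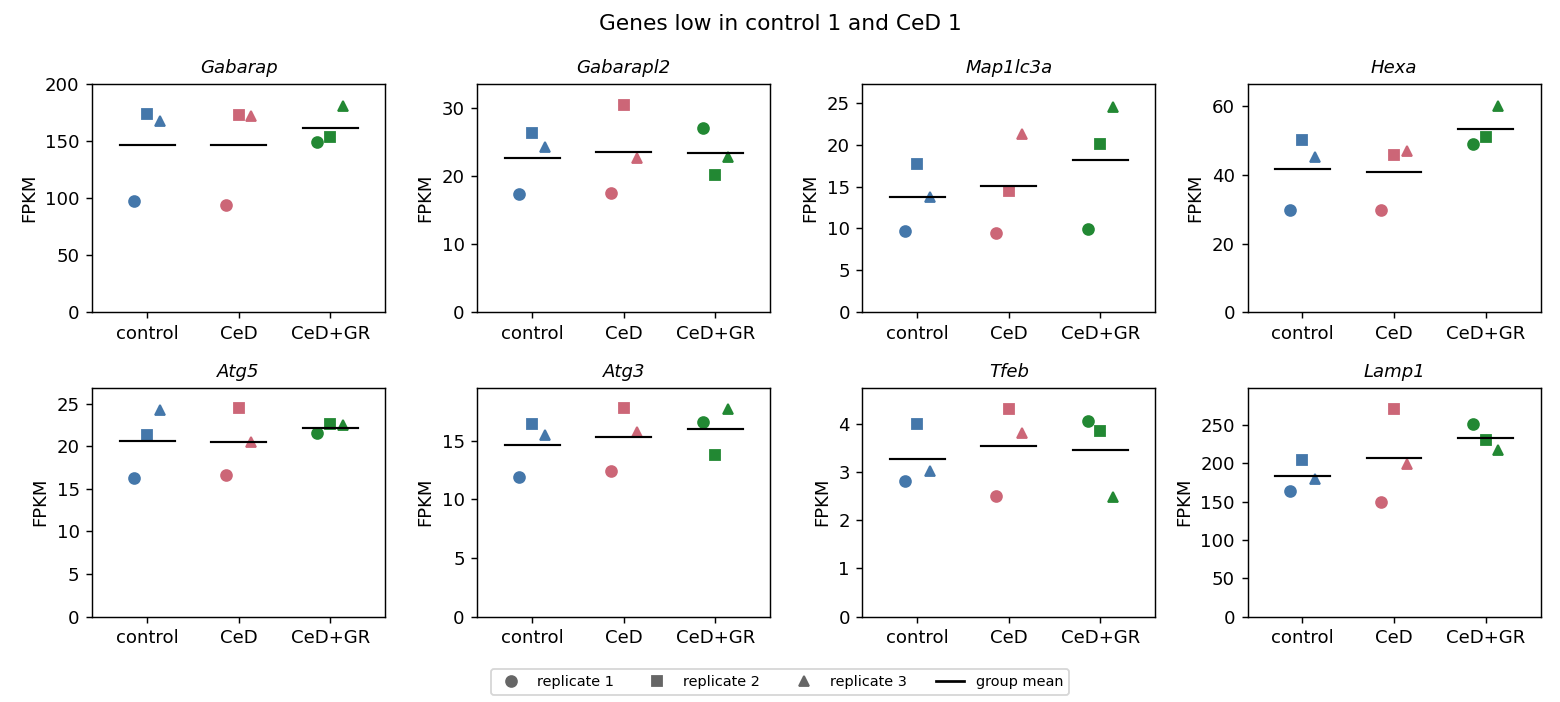
FPKM of 8 of the 14 genes in each library, with replicates 1, 2 and 3 as circles, squares and triangles and group means as lines. The circles of control and CeD lie below the squares and triangles of their groups, as for Gabarap at 97.8 and 94.2 FPKM, and the CeD+GR circle does so for Gabarap, Map1lc3a, Hexa and Atg5.

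The E-box CACGTG and its longer form TCACGTGA, which read the same on both strands, were searched in promoter windows from RefSeq (GRCm38.p6, from 250 bases before to 50 after the start). Of the 38 genes 30 had an entry, with 35 windows. CACGTG was in 12 of 35 windows (34.29%), against 9.64% of the 12841 windows of tested genes. TCACGTGA, each copy of which holds a CACGTG, was in 7 (20.0%) against 1.77%. The same element with a further G before and C after it was in 0 windows, against 0.67%. The further pathway genes described below give shares that differ by class. CACGTG was in 23.08% of windows of lysosomal membrane genes, 21.88% of lysosomal enzymes, 9.52% of V-ATPase genes and 8.89% of autophagy genes. TCACGTGA was in 23.08%, 3.12%, 4.76% and 2.22% of them, in that order. The 7 genes with TCACGTGA were Atg3, Atp6v0d1, Atp6v1a, Ctsa, Ctsd, Gla and Mcoln1, and those with CACGTG alone were Atg5, Atg7, Ctsl, Glb1 and Lamp1. For Ctsa the match lay in a window inside the gene's span, and its window at the start of the span (chr2:164832622-164832921) held no CACGTG. The Atg7 window (chr6:114670846-114671145) also lay inside the gene's span, which begins at 114643097. A match is a description of these letters and not of binding.

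The stretches below are shown because they set the element beside the genes whose levels are given above, in a pump subunit, a protease, a channel, a conjugation enzyme, a hydrolase and the most abundant membrane gene. Capitals mark TCACGTGA or, in Lamp1, CACGTG, and each is read 5′ to 3′ on the gene's strand. Positions are mm10 (GRCm38): Ctsd chr7:142387908-142387937 (minus), Mcoln1 chr8:3500462-3500491 (plus), Atg3 chr16:45158746-45158775 (plus), Atp6v1a chr16:44139373-44139402 (minus), Gla chrX:134601156-134601255 (minus) and Lamp1 chr8:13159061-13159160 (plus).
Ctsd: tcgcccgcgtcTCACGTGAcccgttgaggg
Mcoln1: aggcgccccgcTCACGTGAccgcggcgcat
Atg3: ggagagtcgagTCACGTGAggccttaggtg
Atp6v1a: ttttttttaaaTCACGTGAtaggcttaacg
Gla: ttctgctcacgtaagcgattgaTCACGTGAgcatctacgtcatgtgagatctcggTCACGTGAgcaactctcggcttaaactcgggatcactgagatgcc
Lamp1: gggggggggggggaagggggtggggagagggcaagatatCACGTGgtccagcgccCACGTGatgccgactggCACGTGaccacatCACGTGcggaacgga

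Lamp1 holds 4 copies, at positions -61, -45, -28 and -15 from the start, and Gla holds 2, at -227 and -194. In CeD+GR against CeD, 11 of the 12 genes with CACGTG and 13 of the 18 without it had a positive log2 fold change. Ctsd was 0.55 and Lamp1 0.22 on the log2 scale, Mcoln1 0.00 and Atp6v1a -0.27. The median log2 fold change in that comparison was 0.16 for the 12 genes with CACGTG and 0.07 for the 18 with an entry and no CACGTG, and without CeD+GR 3 these were 0.00 and 0.06. Npc2, Hexa and Map1lc3b had no CACGTG in their windows.

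Other genes of the pathway were read from the same fit. Of 123 further autophagy, lysosomal and V-ATPase genes, 114 were tested, and limma called 0 of them in each of the 3 comparisons. At an unadjusted p under 0.05 there were 0, 0 and 3, all 3 higher in CeD+GR than in control: Ctsk, Naglu and Slc17a5, with log2 fold changes of 0.84, 0.77 and 0.58. These are 2.63% of the 114 genes, near the 2.72% of all genes tested. Their fold changes without CeD+GR 3 are not given here. Slc17a5, which exports sialic acid from the lysosome, stood at 4.12, 3.73 and 3.51 FPKM in the controls, 4.28, 4.44 and 3.58 in CeD and 5.84, 4.45 and 7.89 in CeD+GR. All CeD+GR libraries were above all others, though CeD+GR 2 was level with CeD 2 and CeD+GR 3 was the highest. Among the classes, the median log2 fold change in CeD+GR against CeD was 0.23 for the 34 other lysosomal enzymes (24 positive), 0.08 for 26 membrane genes, 0.03 for 16 V-ATPase genes and -0.01 for 38 autophagy genes. Without CeD+GR 3 these medians were 0.07, -0.02, 0.14 and -0.09.

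In CeD against control, the pair of wider-list genes with the smallest p-values, Laptm5 and Ctsw, are known from immune cells. Laptm5, a lysosomal membrane gene of blood cells, stood at 13.0, 12.8 and 12.5 FPKM in the controls, 9.79, 7.51 and 8.62 in CeD and 9.20, 16.2 and 5.93 in CeD+GR. Every CeD library was below every control, by a log2 fold change of -0.54 ± 0.32 (SE; 95% interval -1.27 to 0.18; limma, adjusted p = 1). Ctsw, a cathepsin gene of cytotoxic lymphocytes, had 8.11, 14.2 and 14.3 FPKM in the controls and 4.46, 7.72 and 8.57 in CeD. The log2 fold change was -0.78 ± 0.48 (SE; 95% interval -1.87 to 0.30; limma, adjusted p = 1). The summed T cell markers were 36.9 to 42.5 FPKM in the controls and 21.0 to 26.2 in CeD. By gene, Cd8a, Cd3g and Cd3e were lower in every CeD library than in any control, while Trac, Cd3d, Cd8b1 and Cd4 overlapped. The part of these markers in the Laptm5 and Ctsw values was not tested.

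With 3 libraries a group an exact permutation test of a single gene cannot give a p under 0.1, and fold changes on the log2(FPKM + 0.5) scale understate those of low genes. Lamp1 shares 3317 bases with Grtp1 on the opposite strand, and the strand setting of the counting is not given in the sources used here.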

How the data were processed

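Total RNA of 9 duodenum samples was depleted of ribosomal RNA and made into directional libraries, per the labels' protocols. The values are FPKM per gene, as deposited by the authors in 1 table of 54532 genes with lengths and coordinates. Per the submitters' processing notes the build was mm10 and the tools were featureCounts 1.5.0-p3, HISAT2 2.0.5, fastp and DESeq2 1.20.0, with no roles stated. How strand was counted, the annotation release and the FPKM formula are not stated there or in the labels. FPKM times length gave whole reads for 100% of values in each library (tolerance 0.1 read), from 15373260 to 16852104 per library, so the depth is known although no counts are used in the main test. The library size implied by FPKM ran from 14410550 (CeD 2) to 18206426 (control 1). It differed from the reads assigned, which were 16195917 and 16185014 in those libraries.

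The 14683 genes averaging 0.5 FPKM or more over the libraries were compared on log2(FPKM + 0.5) with limma 3.58.1 in R 4.3.3, with 1 mean per group, all 9 libraries in the fit and empirical Bayes moderation along a mean-variance trend. The p-values are two-sided, with Benjamini-Hochberg adjustment and a threshold of 0.05. Groups were taken from the treatment in the labels. In data simulated for CeD against control over 14683 genes the procedure recovered 16%, 52%, 76% and 92% of genes changed by 1, 2, 3 and 4 log2 units. The members and gene lists were chosen with earlier results of these data known, so lists are described by counts and medians and are not tested. Values in every library were given for up to 4 members per direction and comparison by smallest p and for Tfeb, Ulk1, Map1lc3b, Sqstm1, Lamp1, Ctsb, Ctsd, Ctsl and Atp6v1a, and for up to 3 other pathway genes per list; Wipi1, Glb1, Gabarap and Ctss were added after their values were seen. Deviations from the group mean were correlated between libraries of different groups. In CeD against control every same-numbered pair exceeded 0.1 (r = 0.712, 0.367 and 0.41). The numbers of the titles were taken to pair those libraries, from the data and not from a statement in the labels. Of the unlike-numbered pairs, control 2 with CeD 3 (0.458) and control 3 with CeD 2 (0.165) also exceeded 0.1, and the rest were negative. Only replicate 1 is thus told apart as a pair. Alternatives were the pseudocount, filter, scaling, variance model, limma-voom on recovered reads, a replicate block and leaving out libraries. Promoter windows came from RefSeq; 8 members had no entry (Atg12, Atg16l1, Atp6v1h, Becn1, Ctsb, Ctsh, Map1lc3a and Npc1). Of the 38 genes, 7 overlap another gene that averages at least 0.5 FPKM.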

Additional observations from a re-analysis of the deposited data

How the results depend on the processing

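The counts of members called, the member medians and 24 fold changes of named genes were recomputed under 22 alternatives, and 0 members passed the adjusted threshold in any of them. Counts without overlap, library patterns, promoter counts and the wider lists were not, beyond the values without CeD+GR 3 given above. The member medians ranged from -0.11 to 0.07 (CeD against control), -0.03 to 0.20 (CeD+GR against CeD) and 0.01 to 0.17 (CeD+GR against control), and leaving out single libraries gave ranges of -0.11 to 0.07, 0.04 to 0.20 and 0.01 to 0.17. Npc2 ranged from 0.62 to 0.87 in CeD+GR against CeD, from 0.43 to 0.63 against control and from -0.28 to -0.18 in CeD against control, and Ctsd in CeD+GR against control from 0.45 to 0.91. Of 528 further values of named genes, 10 turned sign, all of them near 0 and none called. In CeD against control these were Ctsd at -0.002 and Lamp1 at -0.077 without CeD 2 (leaving out single libraries gave -0.002 to 0.319 and -0.077 to 0.351). In CeD+GR against CeD they were Lipa at 0.086 with array weights, 0.185 without CeD 1 and CeD+GR 3, 0.19 without CeD 1, 0.07 without CeD 2 and 0.18 without CeD+GR 2 (range -0.591 to 0.186); Ulk1 at 0.008 with replicates 2 and 3 only; and Atg12 at 0.07 without CeD 2 and 0.094 without CeD+GR 3 (range -0.209 to 0.094). The cause was not tested. With the replicate number as a block, 0 members were called and the medians were -0.01, 0.14 and 0.09. In CeD against control same-numbered libraries deviated together, as given with the processing, but so did control 2 and CeD 3. In the comparisons with CeD+GR, replicate 1 (r = 0.414 with control, 0.375 with CeD) and replicate 2 (0.401 and 0.254) also deviated together but replicate 3 did not (-0.11 and -0.12). Unlike-numbered pairs did so as well: CeD+GR 2 with CeD 3 (0.503) and control 3 (0.358), and CeD+GR 3 with CeD 1 (0.227) and control 1 (0.185). The samples of those comparisons thus share only a number. There the block moved the genes at an unadjusted p under 0.05 in limma from 425 to 805 and from 400 to 643. The block changed no call.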
